A study of Mus musculus with 3 samples.

Results

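Photoreceptor fate factors are the transcription factors that commit newly born retinal cells to become rods and cones, and the genes of 10 of them were examined for CUT&RUN peaks of Atoh7. The factors named as early were Otx2, Prdm1, Thrb, Rxrg and Casz1, the factors named as later were Crx, Nrl and Nr2e3, and Rorb and Mef2d were placed in neither set. A peak was taken as a member when its midpoint lay inside the annotated body of 1 of these genes or within 250 kb of it, and this held for 19 of the 3668 peaks deposited. All libraries came from retina of C57Bl6/J mice at embryonic day 14, with no mutant or treatment, and Atoh7 was profiled in 2 of them and the IgG control in 1. In CUT&RUN an antibody leads a nuclease to the protein on chromatin, and the DNA cut free around it is sequenced. The deposited list gives the position and width of each peak and neither a height nor a value per library, so the 2 Atoh7 libraries could not be compared, the IgG background at these genes is not analysed here, and library depth is unknown. No RNA was measured, so nothing below says whether a gene was active.

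Neurogenic retinal progenitors express Atoh7, a factor of the basic helix-loop-helix (bHLH) class. It is best known for its part in the making of retinal ganglion cells, and progenitors that have expressed it also give rise to cones, horizontal cells and other neurons. Otx2, a homeodomain factor, starts photoreceptor fate and lies upstream of Crx, a homeodomain factor that drives photoreceptor genes. Cones form early, and their identity involves the nuclear receptors Thrb and Rxrg. Rods form later under Nrl, a leucine zipper factor, and Nr2e3, a nuclear receptor that represses cone genes in rods. bHLH dimers bind the E-box, the letters CANNTG, and Otx2 and Crx bind sites that hold the letters TAATCC.

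Peaks were found around some of these genes and were missing around others. At least 1 peak lay within 250 kb of 7 of the 10 genes (70%, 95% Wilson interval 39.7 to 89.2%), where 54.2% of 21631 protein-coding genes had one. The early set had a peak at 3 of 5 genes (Otx2, Thrb and Casz1), the later set at 2 of 3 (Crx and Nrl), and Rorb and Mef2d each had one. Within this distance, the share of genes was thus near that of all coding genes. Closer to the genes the shares stood further apart. A peak midpoint lay inside the body of 5 of the 10 genes, where 7.17% of coding genes had one, within 50 kb of 6 of the 10, where 24.4% of coding genes had one, and within 100 kb of the same 6, where 34.9% of coding genes had one. Members with long bodies offer more sequence, and of coding genes of at least 100 kb, 26.8% held a peak in the body. Members are genes and not replicates, so no test was made of these counts. The 10 genes were chosen and not drawn at random, so the interval covers counting only.

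Peak number differed more between genes than the count of genes shows. Casz1 had 8 peaks, Thrb 3, Otx2, Rorb and Mef2d 2 each, and Crx and Nrl 1 each, while Prdm1, Rxrg and Nr2e3 had none. The early set held 13 peaks in 3.17 Mb of sequence (4.09 peaks per Mb) and the later set 2 in 1.54 Mb (1.30 peaks per Mb). The median coding gene had 1.74 peaks per Mb of such a window. That value is a median over genes, whereas the densities of the sets pool the peaks and sequence of their genes. As medians over genes, the early set had 3.41 and the later set 1.95 peaks per Mb. Casz1 made up most of the difference between the pooled densities, since without it the early set held 5 peaks, or 1.98 per Mb. The early median also rested on Casz1, at 12.3 peaks per Mb. Without it, the middle of the early values would fall between 0 (Prdm1 and Rxrg) and 3.41 (Thrb), with Otx2 at 3.91. The difference between the early and the later set was not tested.

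**Figure D1:**
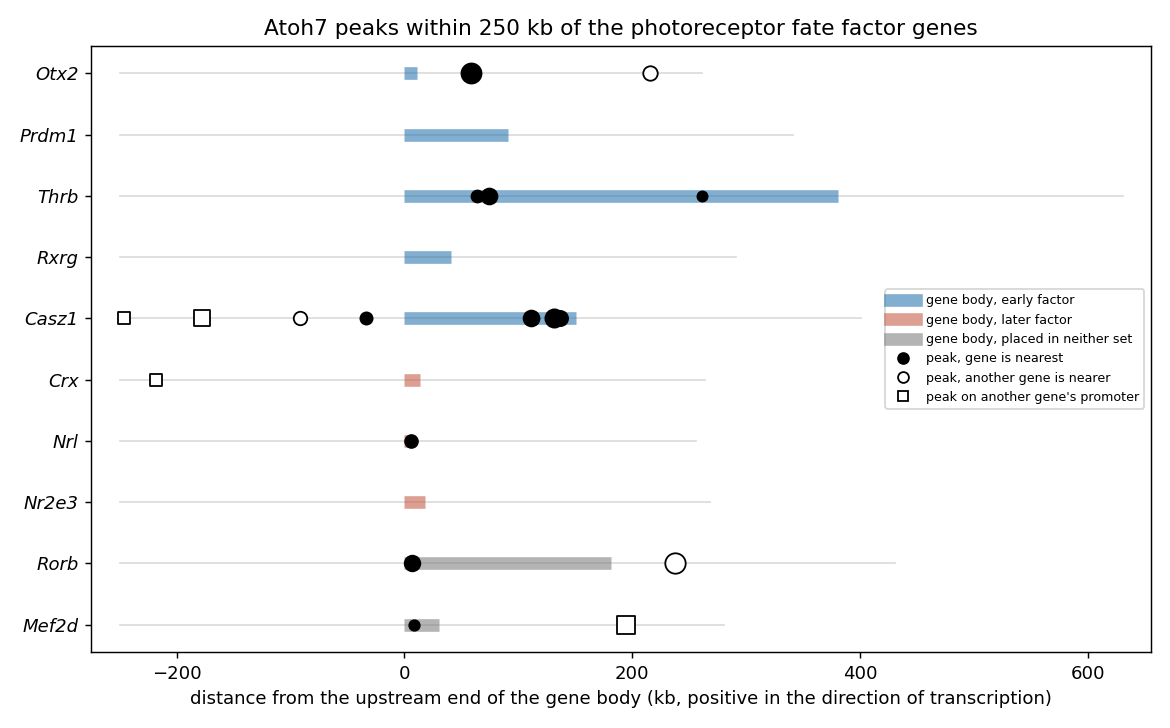
Position of each peak (symbols) relative to the upstream end of the gene body in kb, positive in the direction of transcription, with the gene body as a thick bar and the 250 kb on each side as a thin line. Symbol area follows peak width, filled symbols are peaks whose nearest coding gene is the gene of that row, and squares are peaks on the promoter of another gene. Of 19 peaks, 12 are filled, and Prdm1, Rxrg and Nr2e3 have none.

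Casz1, a zinc-finger factor of progenitor temporal identity and later of photoreceptors, had the densest set of peaks. Its body (chromosome 4, 148804366 to 148954893, 151 kb, plus strand) held 4 peaks. These lay at 148914963 to 148915421, 148916167 to 148916507, 148935240 to 148935849 and 148940616 to 148941036, with widths of 459, 341, 610 and 421 bp. All 4 lay in the far part of the gene, centred 25.8 to 51.5 kb downstream of the inner of its 2 annotated start sites. The first pair were centred 1.15 kb apart, inside a long noncoding RNA gene, Gm15969, that lies within Casz1. The last pair were 5.28 kb apart. Of 1581 coding genes whose body was within 1.5-fold of the length of Casz1, 0.569% held at least as many peaks in the body. Within 250 kb, 0.430% of all coding genes had at least as many peaks as Casz1.

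Upstream of Casz1, a peak of 273 bp at 148770699 to 148770971 was centred 33.5 kb from the gene, with Casz1 as its nearest coding gene. A further peak of 334 bp, 91.6 kb upstream, was nearer to Gm572, at 35.7 kb. The remaining 2 lay on promoters of other genes. The peak at 148626795 to 148627223 was centred 13 bp from the start of Tardbp, which encodes an RNA-binding protein, and was 177 kb from Casz1. The peak at 148558359 to 148558650 covered promoter sequence of Exosc10, an RNA exosome gene, and was 246 kb from Casz1, just inside the 250 kb limit.

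Thrb encodes the thyroid hormone receptor beta, and a form of it made from an internal promoter marks cones. Its body (chromosome 14, 17659225 to 18040097, 381 kb, plus strand) held all 3 of its peaks. The peaks at 17723080 to 17723344 and 17733645 to 17734107, 265 and 463 bp wide, were centred 10.7 kb apart, 62.3 and 72.9 kb downstream of the outer start site. The peak at 17920541 to 17920730 was 190 bp wide, and 95.3% of all peaks were at least as wide. It was centred 61.0 kb upstream of the inner start site at 17981644. Of 535 coding genes of a body length within 1.5-fold of that of Thrb, 5.61% held at least as many peaks in the body.

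Otx2 (chromosome 14, 48656781 to 48667644, minus strand) had no peak in or next to the gene. The nearest lay at 48608449 to 48609186, centred 48.0 kb beyond the 3′ side of the gene and 53.9 kb downstream of the nearest of its 4 annotated starts. It was 738 bp wide, and 4.10% of all peaks were at least as wide. Otx2 was its nearest coding gene by a small margin, at 48.0 kb, with Tmem260 at 48.6 kb on the other side. The second peak, of 385 bp, was centred 204 kb from Otx2, inside Tmem260. Of all coding genes, 76.0% had their nearest peak as far away as Otx2 or farther.

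Prdm1 and Rxrg, the other early genes, had no peak within 250 kb. Prdm1, also called Blimp1, encodes a zinc-finger repressor that holds new photoreceptors back from bipolar fate. Its nearest peak was 882 kb away, and 17.4% of coding genes had their nearest peak as far or farther. Rxrg, which encodes the retinoid X receptor gamma of cones, had its nearest peak at 290 kb, where 42.3% of coding genes had theirs as far or farther.

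Of the later genes, Nrl had a peak inside its body (chromosome 14, 55518978 to 55524981, minus strand). The peak at 55518899 to 55519201 was 303 bp wide and straddled the 3′ end of the gene, with its midpoint 72 bp inside that end and 5.20 kb downstream of the annotated start. The next coding gene, Cpne6, lay 1.61 kb from the midpoint. This was the only peak within 250 kb of Nrl, although 27 other coding genes lay in that window. Of 3195 coding genes of a similar body length, 2.75% held a peak in the body. Crx had a peak 218 kb upstream of the gene, at 16098149 to 16098445 on chromosome 7. That peak lay at the start of Napa, a gene of vesicle fusion, and its midpoint was 283 bp from the annotated start of Napa. Nr2e3 had its nearest peak at 283 kb, outside the limit, and 42.9% of coding genes had theirs as far or farther. Moving the limit to 500 kb therefore gave 3 of 3 later genes and 4 of 5 early genes a peak, where 70.3% of coding genes had one.

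Rorb and Mef2d, which encode a nuclear receptor needed for Nrl expression and a factor that acts with Crx at photoreceptor genes, each had a peak within 10 kb downstream of a start site. The Rorb peak (chromosome 19, 19104505 to 19104951, 447 bp) was centred 6.47 kb downstream of the outer start site of a gene of 181 kb. Of coding genes of similar length, 23.7% held a peak in the body, so a peak there was common for such a gene. The Mef2d peak (chromosome 3, 88150537 to 88150737, 201 bp) was centred 8.27 kb downstream of its start, and 6.06% of coding genes of similar length held a peak in the body. Each gene had a further peak nearer to another gene. The widest of all 19 peaks, 765 bp, was centred 56.6 kb beyond the 3′ side of Rorb, inside the channel gene Trpm6. The other, 562 bp, was centred 164 kb beyond Mef2d, 23.5 bp from the start of Smg5, a gene of RNA decay.

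**Figure D2:**
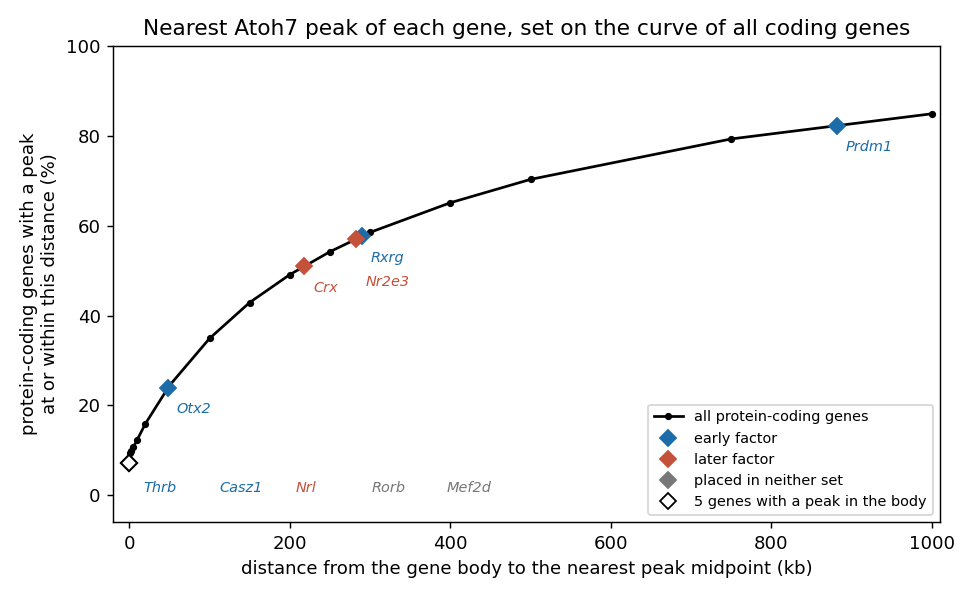
Share of 21631 protein-coding genes with a peak midpoint at or within each distance of the gene body (black line, in percent), with each photoreceptor factor gene set on the line at its own nearest distance in kb. The open diamond at 0 kb stands for Thrb, Casz1, Nrl, Rorb and Mef2d, Otx2 sits at 48.0 kb, and Prdm1 is farthest at 882 kb.

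**Figure D3:**
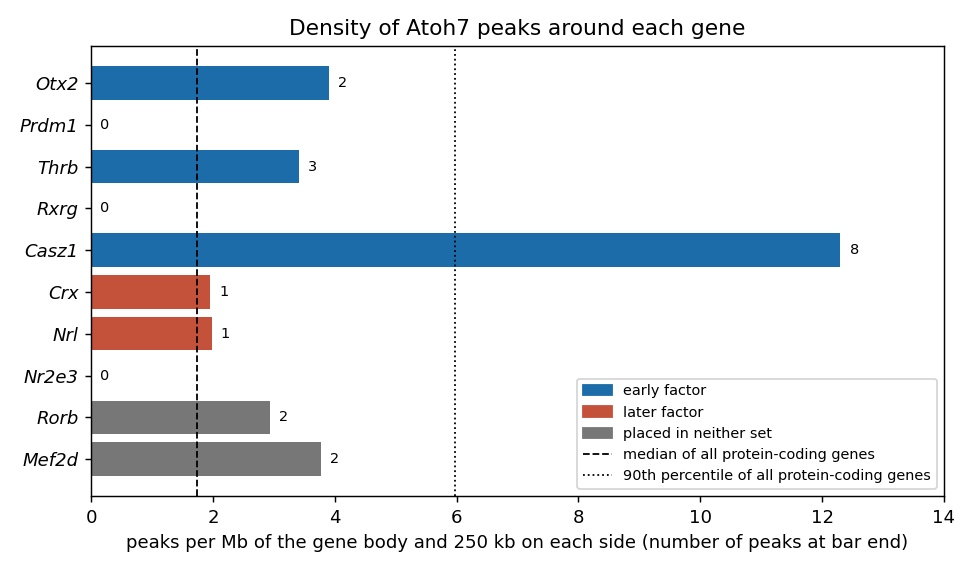
Peaks per Mb of each gene body with 250 kb on each side (bars), with the number of peaks at the end of each bar. Dashed and dotted lines mark the median and the 90th percentile of all protein-coding genes, 1.74 and 5.97 peaks per Mb. Casz1, at 12.3 peaks per Mb, is the only one of the 10 genes beyond the dotted line.

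None of the peaks lay on a promoter of the 10 genes. Promoters were taken as the 300 bases from 250 before to 50 after each annotated start in RefSeq (GRCm38.p6, the assembly mm10 names), and the 10 genes had 17 of them. Of the 19 peaks, 4 overlapped a promoter by at least 1 bp, and each of these promoters belonged to another gene (Exosc10, Tardbp, Napa and Smg5). Over the whole list, 18.4% of 3662 peaks overlapped a promoter, and 2.73% of 32851 promoters were overlapped. No genome sequence was used here, so the sequence of the peaks themselves is not shown.

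Of the promoters that peaks did cover, those of Smg5, Tardbp and Napa are shown first, to set beside those of the photoreceptor genes. Each is 300 bases of GRCm38.p6, 5′ to 3′ on the strand of its gene. Capitals mark every E-box (CANNTG) and every TAATCC or its reverse complement.
Smg5 promoter (chr3:88336010-88336309, plus strand): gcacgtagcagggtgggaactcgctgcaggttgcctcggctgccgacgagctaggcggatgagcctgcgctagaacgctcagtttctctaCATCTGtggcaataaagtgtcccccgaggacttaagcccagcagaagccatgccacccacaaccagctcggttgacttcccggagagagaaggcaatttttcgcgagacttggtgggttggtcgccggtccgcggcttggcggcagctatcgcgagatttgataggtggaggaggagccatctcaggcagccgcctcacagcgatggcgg
Tardbp promoter (chr4:148626947-148627246, minus strand): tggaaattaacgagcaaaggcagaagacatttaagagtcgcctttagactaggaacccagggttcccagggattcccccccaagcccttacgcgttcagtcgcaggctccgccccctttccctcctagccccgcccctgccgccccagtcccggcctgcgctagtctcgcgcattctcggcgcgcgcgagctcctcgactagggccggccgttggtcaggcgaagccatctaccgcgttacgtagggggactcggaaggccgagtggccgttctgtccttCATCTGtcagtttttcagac
Napa promoter (chr7:16098330-16098629, plus strand): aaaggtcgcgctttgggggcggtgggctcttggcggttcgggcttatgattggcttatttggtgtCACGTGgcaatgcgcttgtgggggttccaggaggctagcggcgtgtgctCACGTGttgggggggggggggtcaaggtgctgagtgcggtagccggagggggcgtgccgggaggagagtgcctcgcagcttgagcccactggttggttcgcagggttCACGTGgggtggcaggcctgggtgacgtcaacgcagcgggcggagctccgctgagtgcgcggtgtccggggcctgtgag
The Smg5 peak covered all 300 bases and the Tardbp peak 277 of them, and each promoter held 1 E-box, reading CATCTG. The Napa peak covered 116 bases, and of the 3 E-boxes of that promoter, each reading CACGTG, 1 lay wholly under the peak. The pair of Exosc10 promoters are not shown. The outer held 1 E-box, reading CACTTG, and 1 TAATCC, with 110 bases under the peak, and the inner held neither, with 188 bases under it. No E-box of either lay under the Exosc10 peak.

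The next promoters are a choice from the photoreceptor genes that shows the range of these letters: Nr2e3 and Rxrg hold CAGCTG, Otx2 and Nrl hold CAGATG on either strand, and Crx holds TAATCC and no E-box.
Nr2e3 promoter (chr9:59950030-59950329, minus strand): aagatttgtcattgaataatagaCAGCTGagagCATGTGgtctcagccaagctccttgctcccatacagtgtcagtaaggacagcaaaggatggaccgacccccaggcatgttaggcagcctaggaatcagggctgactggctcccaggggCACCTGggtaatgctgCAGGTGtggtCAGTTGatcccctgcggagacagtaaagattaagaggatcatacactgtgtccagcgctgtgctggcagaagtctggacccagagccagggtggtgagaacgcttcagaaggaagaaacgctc
Rxrg promoter at the inner start (chr1:167618015-167618314, plus strand): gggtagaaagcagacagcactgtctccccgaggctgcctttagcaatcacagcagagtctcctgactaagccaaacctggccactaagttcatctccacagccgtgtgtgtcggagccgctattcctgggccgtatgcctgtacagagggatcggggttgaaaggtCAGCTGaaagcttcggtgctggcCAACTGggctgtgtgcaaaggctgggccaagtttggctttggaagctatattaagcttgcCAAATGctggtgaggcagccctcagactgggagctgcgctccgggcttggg
Otx2 promoter at the start nearest its peak (chr14:48662685-48662984, minus strand): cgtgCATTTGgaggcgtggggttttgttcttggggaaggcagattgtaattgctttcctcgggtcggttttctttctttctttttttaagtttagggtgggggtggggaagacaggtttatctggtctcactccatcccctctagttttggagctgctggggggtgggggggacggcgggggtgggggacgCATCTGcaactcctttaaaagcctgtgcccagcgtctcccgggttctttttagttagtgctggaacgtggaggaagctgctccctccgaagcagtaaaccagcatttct
Nrl promoter (chr14:55524203-55524502, minus strand): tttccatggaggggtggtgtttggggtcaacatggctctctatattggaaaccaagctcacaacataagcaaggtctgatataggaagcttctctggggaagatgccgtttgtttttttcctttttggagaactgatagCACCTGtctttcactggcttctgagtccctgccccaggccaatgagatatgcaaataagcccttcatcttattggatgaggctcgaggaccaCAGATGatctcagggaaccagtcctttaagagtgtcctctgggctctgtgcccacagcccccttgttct
Crx promoter (chr7:15879906-15880205, minus strand): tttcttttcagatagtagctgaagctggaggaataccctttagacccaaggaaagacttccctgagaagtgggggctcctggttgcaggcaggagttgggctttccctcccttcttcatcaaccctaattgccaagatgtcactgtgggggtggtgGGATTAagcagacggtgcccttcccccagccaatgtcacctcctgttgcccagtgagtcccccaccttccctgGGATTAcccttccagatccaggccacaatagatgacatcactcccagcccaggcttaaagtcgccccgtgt
Nr2e3 had 5 E-boxes, the most of the 17 promoters, and had no peak within 250 kb. Crx had 2 copies of TAATCC, both on the reverse strand as GGATTA.

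Searched on both strands, CANNTG was found in 10 of the 17 promoters, in at least 1 promoter of 7 of the 10 genes, and 72.3% of all promoters held it. The E-box form CAGCTG, which is its own reverse complement, was found in 2 of the 17 and in 16.3% of all promoters. The form CAGATG, read as CATCTG on the other strand, was found in 2 of the 17 and in 17.2% of all promoters. Both forms are also counted among the E-boxes. The letters TAATCC were found in 4 of the 17, belonging to Otx2, Thrb, Casz1 and Crx, and in 7.06% of all promoters. Across the genome, the 898 promoters under a peak held CAGCTG in 28.0% (95% Wilson interval 25.1 to 31.0%), and all promoters in 16.3%. The other letters searched had lower shares under peaks, by margins that were small for CAGATG and TAATCC. For CAGATG the 95% Wilson interval under peaks, 13.5 to 18.2%, held the share of all promoters. For TAATCC it was 4.06 to 7.02%, ending just below that share. A promoter counted as under a peak with an overlap of at least 1 bp, so the letters need not lie under the peak. Promoters under a peak and all promoters held CANNTG in 67.1% and 72.3%, CAGATG in 15.7% and 17.2%, and TAATCC in 5.35% and 7.06%. A further E-box form, CATATG, was in 1.45% of promoters under a peak and 3.91% of all promoters, and in 0 of the 17. A match of letters is a description of the sequence and not evidence of binding.

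Some peaks in these windows lay nearer to another gene. Of the 19 peaks, 12 had the photoreceptor gene as their nearest coding gene, and 7 lay nearer to another. For the early genes this split was 9 and 4, for the later genes 1 and 1, and for Rorb and Mef2d 2 and 2. The same split was not counted for the windows of all coding genes. Within 100 kb, 6 of the 10 genes were the nearest coding gene to a peak, where 11.1% of coding genes were. Counting any coding gene, 15 of the 19 midpoints lay inside a gene body, where 53.7% of all peaks did. The 19 peaks were chosen for lying in or near the 10 genes, and 10 of them lay in those bodies. The share among them is thus partly set by that choice. Peak widths ran from 190 to 765 bp with a median of 385 bp, and the median over the whole list was 381 bp.

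The numbers in the peak names bear on the genes without peaks. Names carry a running number along the genome up to 7185, of which 51.1% are in the list, so an absent number stands for a name that is not in the list. Around Crx, no number was absent between the listed peaks on either side of its window, 8570 kb below the gene and 292 kb above it. Around Prdm1, 5 numbers were absent between listed peaks 1680 kb below and 882 kb above the gene, and whether any of those 5 lay within 250 kb cannot be told. Around Rxrg and Nr2e3, 2 numbers each were absent between the flanking peaks. Inside the Casz1 window, 4 numbers were absent between its 8 listed peaks, and none was absent between the 3 peaks of Thrb.

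Genes that act with these factors were counted in lists. The lists were chosen with earlier results of these data known, so their shares are description only. Among 23 other regulators of photoreceptor and bipolar cells, 21 had a peak within 250 kb (54.2% of coding genes did), 15 within 50 kb (24.4%) and 6 in the body (7.17%). Those with a peak in the body were Rbpj, the DNA-binding partner of Notch, with 4, the receptor gene Notch1 with 3, and Lhx4, Prdm8, Foxn4 and Cbx5 with 1 each. Others had peaks within 10 kb outside the body. The bHLH gene Neurod1 had 2, centred 297 bp and 2.57 kb away, and the related Neurod4 had 2, at 1.99 and 3.43 kb. Olig2, a bHLH gene of a progenitor subset that makes cones and horizontal cells, had 2, at 1.75 and 2.48 kb. Onecut1 and Onecut2, homeobox genes of early cone and horizontal precursors, had 1 each, at 1.24 kb and 136 bp.

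Genes that carry out phototransduction were counted in the same way. Of 27 genes of the rod pathway and outer segment, 14 had a peak within 250 kb, 3 within 50 kb and 2 in the body. These are shares of 51.9%, 11.1% and 7.41%, where all coding genes gave 54.2%, 24.4% and 7.17%. The pair with a peak in the body were Gnat1, the rod transducin gene, and Prom1, an outer segment gene. Of 11 cone phototransduction genes, 6 had a peak within 250 kb, 2 within 50 kb and 1 in the body, shares of 54.5%, 18.2% and 9.09% beside the same values for all coding genes. The gene with a peak in the body was Slc24a2, the cone exchanger gene, while the peak 4.81 kb from Gnb3, a cone transducin subunit gene, lay nearer to Usp5. No test was made between these lists and the regulators.

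Nuclear receptors related to Thrb, Rxrg, Nr2e3 and Rorb had a peak within 250 kb at 12 of 14 genes (54.2% of coding genes did), within 50 kb at 7 (24.4%) and in the body at 3 (7.17%). The 3 were Rxra, Rora and Esrrg, with 1 peak each. The peak at Rxrb, centred 173 bp from the gene, overlapped its promoter and that of the neighbouring Slc39a7, which was nearer, and the peak at Nr2f1 was centred 7.24 kb away. Other relatives of the 10 genes, from the Otx, Prdm, Maf and Mef2 families, had a peak within 250 kb at 9 of 15 (60.0%, beside the same 54.2%), within 50 kb at 5 (33.3%, beside 24.4%) and in the body at 2 (13.3%, beside 7.17%). These 2 were Prdm2 and Mef2c, and Mafa had a peak centred 90 bp from the gene. Beside them, factors of other early retinal neurons gave 9 of 10 genes with a peak within 250 kb for ganglion cell factors, 8 of 10 for amacrine and horizontal cell factors and 8 of 10 for proneural factors, again beside 54.2% of coding genes. Members of those lists with a peak in the body or within 10 kb were Pou4f1, Ebf2, Ebf3 and Eya2 for ganglion cells, Foxn4, Onecut1, Onecut2 and Bhlhe22 for amacrine and horizontal cells, and Atoh7, Neurog2, Neurod1 and Neurod4 among the proneural genes. Several of them, such as Foxn4 and Neurod1, are also in the list of photoreceptor and bipolar regulators. In the body the counts were 5 of 10 for the photoreceptor factors, against 3, 1 and 0 of 10 in those lists and 7.17% of coding genes. Within 50 kb they were closer, at 6 of 10 against 5, 4 and 6 of 10, beside 24.4% of coding genes. The photoreceptor factor genes were longer, with a median body of 35.7 kb and 3 bodies over 150 kb, against medians of 10.2, 22.3 and 2.87 kb in the 3 lists, and the differences in count were not tested.

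**Figure D4:**
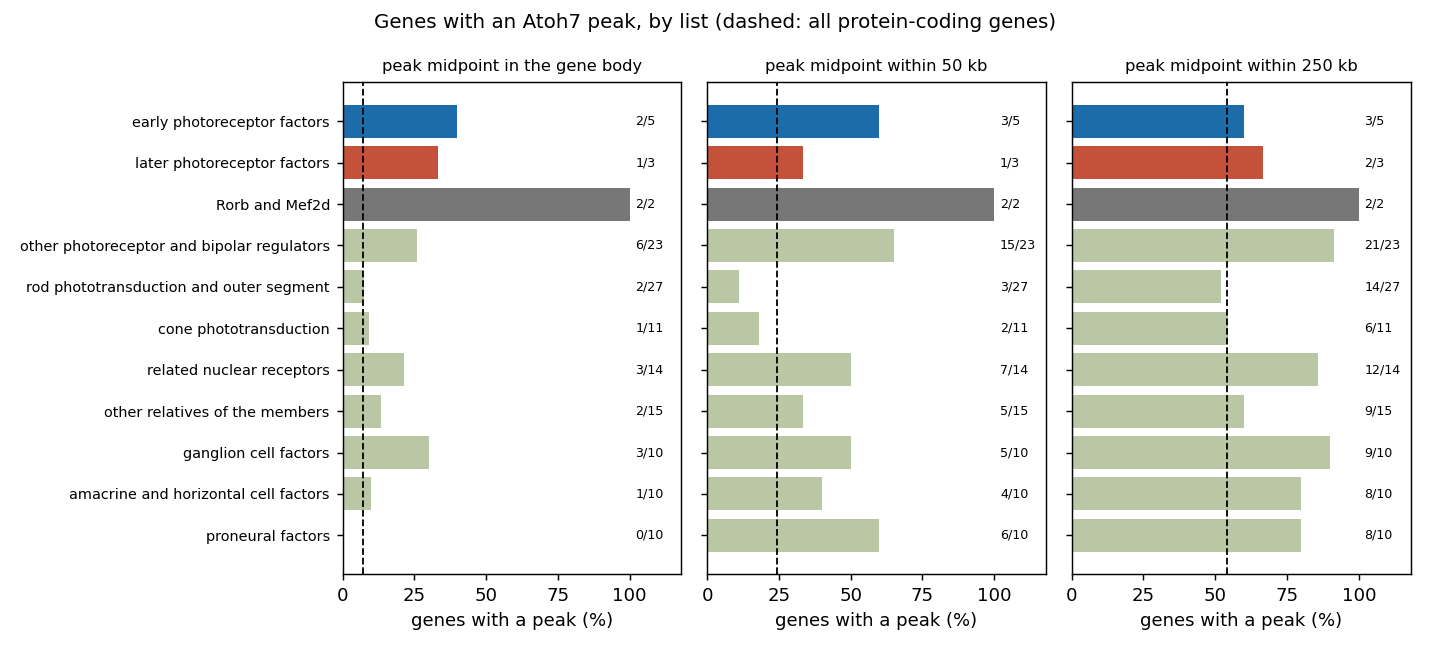
Percent of genes in each list with a peak midpoint in the gene body, within 50 kb and within 250 kb (bars, with counts at the right), and the share of all protein-coding genes (dashed line: 7.17%, 24.4% and 54.2%). Rod phototransduction genes stay at or under the dashed line in the panels for 50 kb (3 of 27) and 250 kb (14 of 27).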

How the data were processed

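The authors deposited 1 table of peaks, which per the file headers gives chromosome, position, width in bp and a name for each, with no signal value. The submitters' processing notes name the mm10 build and MACS2 2.2.7.1, with bedtools, Bowtie2 2.3.5, Picard 2.0.1 and SAMtools. Order, settings and the step that left numbers out of the names are not given in the sources used here, nor is the use of the replicate 2 or IgG library. Every peak name begins with Atoh7_R1. The labels do not say whether the libraries came from separate animals.

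Coordinates count from 1. Gene bodies were read from RefSeq (GRCm38.p6) without exons, so exon and intron are not given, and strand, start sites and promoters came from a RefSeq promoter table holding 27025 genes. All 10 genes were found in both. Peaks on chromosomes 1 to 19, X and Y were used (3662), leaving out 5 mitochondrial peaks and 1 on an unplaced scaffold. Distances run from the peak midpoint to the gene body. The background was 21631 protein-coding genes on chromosomes 1 to 19 and X. Neighbouring genes share peaks, so the genes behind a background share are not independent. Intervals cover counting of genes or promoters only.

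The genes and lists were chosen with earlier results of these data known. Named were all 10 genes, each peak within 50 kb of them and their nearest peak, and list genes with a peak in the body or within 10 kb. A further gene of the lists is not reported here and is left out of their counts. Placement was tested on simulated data. The software was pandas 2.3.3 and numpy 2.4.6 in Python 3.11.15, scipy 1.17.1 for intervals and matplotlib 3.10.9 for figures. Alternatives were other distances, wider peaks, any overlap, nearest genes only and all annotated genes. Distance from start sites and the counts without Casz1 were added after the data were seen.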

Additional observations from a re-analysis of the deposited data

How the results depend on the processing

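Of 34 alternative values for the counts and densities of the 10 genes, 23 stayed close to the first value (counts within 1.5 times, shares within their binomial interval, and density within 1.93 to 5 peaks per Mb, the exact binomial interval of the share of all peaks that lay in the windows). The number of peaks was 19 with the 250 kb limit, 12 with 50 kb, 31 with 500 kb, 10 with the wider 50% of peaks, 12 for peaks given only to their nearest coding gene within 100 kb, and 11 without Casz1. The later genes with a peak numbered 2 of 3 with 250 kb, 1 with 50 kb, 100 kb or nearest genes only, and 0 with the wider 50% of peaks. The early genes with a peak stayed at 3 of 5 under the 50 and 100 kb limits, with the wider peaks and with nearest genes only. Of all coding genes, 24.4% had a peak within 50 kb, 34.9% within 100 kb and 11.1% with nearest genes only. The share of all coding genes with the wider peaks was not counted, and the early and later sets were not tested against each other. Density was 3.21 peaks per Mb with 250 kb, 6.24 with 50 kb and 2.09 without Casz1. For all coding genes, density was taken only with 250 kb, with a median of 1.74. The value with 50 kb thus has no background beside it. Over all 49554 annotated genes, 48.4% had a peak within 250 kb, where 54.2% of coding genes did. Of 16 values for the further lists, 9 stayed within 1.5 times. Under that rule 3 and 2 genes counted as close, and leaving out Casz1 had to lower the counts it was part of. The numbers of values that stayed close are thus no measure of stability.

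Leaving out a library was not possible, since the list gives no value per library. No paired analysis was possible because the list holds no value per library. A list without heights cannot say how strong a peak is, and a gene without a listed peak cannot be called unbound.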
